A study of Mus musculus with 6 samples.

Results

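*Bcl11b* and *Bcl11a* are the paralogous genes of the BCL11 family, and both were measured in bulk RNA-seq of the proximal mouse incisor. They were chosen by gene name, with their values in this comparison already known, and are 2 of 19270 genes in the table. RNA from incisors of 3 control and 3 mutant mice, all given tamoxifen at 1 month of age, was collected 4 days after induction. The labels give the tissue as incisor, and the methods describe a dissection of its proximal mesenchyme. The mutants were *Gli1-CreER;Arid1bfl/fl*. The labels call the controls wild type, whereas the methods describe floxed *Arid1b* mice given the same injections. Both groups therefore share tamoxifen and, by the methods, the floxed alleles. *Gli1-CreER* places a tamoxifen-activated recombinase at the *Gli1* locus, so *Arid1b*, which encodes a DNA-binding subunit of the BAF chromatin remodeling complex, is targeted in cells that express *Gli1* and in their progeny, which the study describes in both mesenchyme and epithelium of the incisor.

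BCL11A and BCL11B, also known as CTIP1 and CTIP2, are C2H2 zinc finger transcription factors that recruit the NuRD histone deacetylase complex and also purify with BAF complexes as subunits. BCL11B is best known for committing and keeping T cells in their lineage, for deep-layer neurons of the cortex, and for skin and ameloblasts, the epithelial cells that make enamel. BCL11A is known for silencing embryonic and fetal globin genes and for B cells and plasmacytoid dendritic cells. In the continuously growing incisor, mesenchymal stem cells (MSCs) around the neurovascular bundle express *Gli1*, and the study asked how *Arid1b* bears on *Bcl11b* there.

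*Bcl11b* lies on chromosome 12 of GRCm38 (the assembly also named mm10), on the minus strand from 107910403 to 108003602. Its longest transcript in GENCODE vM21, Bcl11b-201, has 4 exons, of which exon 4 alone holds 7012 of 8111 bases. Intron 3, in which the study looked for binding of ARID1B, spans 107917415 to 107965671 and is 48257 bases long. *Bcl11a* lies on chromosome 11 on the plus strand from 24078056 to 24174123. No other annotated gene overlaps *Bcl11b*, whereas 2 antisense genes overlap *Bcl11a*, and 1 of them, *4930538E20Rik*, shares 316 exonic bases with it. Whether reads were assigned by strand is not given in the sources used here. Within these 316 of the 13175 exonic bases of *Bcl11a*, reads of *Bcl11a* and of this antisense gene therefore cannot be told apart.

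The oligos below are those of the RT-qPCR, intron and CRISPRi assays of *Bcl11b*, shown because they fix which part of the gene these assays read. The RT-qPCR was run on primary cells treated with CRISPRi vectors, not on mutants against controls. The study also compared *Bcl11b* RNA between controls and mutants by in situ hybridization, quantified per cell, whose probe sequence is not shown here. A further comparison in the study was made within dental mesenchymal cells by single-cell RNA-seq, which is not analysed here. The RT-qPCR product, with the primer sites in capitals, is 112 bases of coding sequence within exon 3 of Bcl11b-201, from 107965821 down to 107965710 on chromosome 12 of GRCm38, and crosses no splice junction.
RT-qPCR product: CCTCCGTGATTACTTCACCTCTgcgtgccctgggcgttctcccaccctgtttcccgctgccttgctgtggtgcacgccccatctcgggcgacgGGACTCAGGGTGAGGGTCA
Intron primer, forward: acagtgtgttgcaaaccagg
Intron primer, reverse: tacacaaagggcatccccag
CRISPRi guide, PAM in capitals: caatctttcacggctacccgTGG

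Exon 3 is present in 1 of the 3 annotated transcripts of *Bcl11b*, and the RT-qPCR primers matched that transcript alone among all annotated mouse transcripts. The intron primers and the guide matched 0 annotated transcripts. The normalized signal described here is given per gene, without separate values for the 3 transcripts.

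The RNA-seq table holds an authors' mean for each group and gene, in a normalized signal scaled so that the upper quartile is the same in every library. Single-library values of a gene were not analysed here. The means therefore carry no SD, no test between mice was made, and it cannot be said which libraries were high or low or whether the groups overlap. The libraries held about 3.71e+07 to 4.96e+07 reads on these genes, as estimated from their lowest and mean signal. The targeted gene *Arid1b* averaged 97.6 in controls and 38.0 in mutants, a log2 ratio of -1.36. *Gli1*, the site of the recombinase, averaged 106.4 in controls and 46.1 in mutants. Among sex-linked transcripts, *Xist* averaged 3368 in controls and 813.8 in mutants, and *Ddx3y* had the lowest mean of the table in controls and 65.3 in mutants, so sex and genotype cannot be told apart in any comparison here.

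*Bcl11b* had an authors' mean of 33.6 in controls and 52.6 in mutants. The mean was thus 18.97 higher in mutants, a ratio of 1.56 and a log2 ratio of 0.65. The means correspond to about 1300 reads in each control library and 2280 in each mutant library. At that depth the exact 95% interval of the ratio, which covers counting error only and none of the spread between mice, was 1.5 to 1.63.

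*Bcl11a* had an authors' mean of 77.5 in controls and 106.3 in mutants. The difference of 28.9 was larger in signal than that of *Bcl11b*, but the ratio was smaller, at 1.37, with a log2 ratio of 0.46. About 2995 reads in each control library and 4608 in each mutant library stand behind these means, and the counting interval of the ratio was 1.34 to 1.41. Both paralogs therefore had a higher mean in mutants. The log2 ratio of *Bcl11b* lay 0.19 above that of *Bcl11a*, with a counting interval of 0.12 to 0.26, and whether this difference exceeds the spread between mice was not tested.

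**Figure D1:**
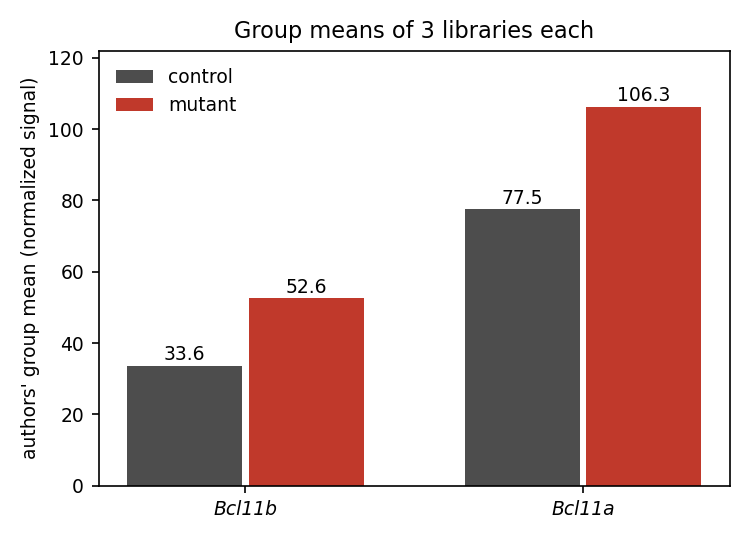
Authors' group means of *Bcl11b* and *Bcl11a* in normalized signal (vertical axis, from 0), with control in grey and mutant in red, each the mean of 3 libraries and without error bars because values per library were not analysed. Both genes are higher in mutants, from 33.6 to 52.6 and from 77.5 to 106.3.

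Of the 2 paralogs, *Bcl11b* alone was more than 1.5-fold higher in mutants, the fold threshold of the study, and *Bcl11a* was not. Of all genes, 7.37% were more than 1.5-fold higher and 5.8% more than 1.5-fold lower. Since the genes were chosen with this contrast in view, nothing is read from this count. *Bcl11b* lay just inside the fold threshold and *Bcl11a* outside it.

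Per exonic length, *Bcl11a* was the more abundant paralog. These levels take the reads as counted over exons, which is not given in the sources used here. Over the union of annotated exons (8111 bases for *Bcl11b* and 13175 for *Bcl11a*), the control mean was 4.15 of normalized signal per kilobase for *Bcl11b* and 5.88 for *Bcl11a*. In the mutants these levels were 6.49 and 8.07. *Bcl11a* was thus 1.42 times as abundant as *Bcl11b* per kilobase in controls and 1.24 times in mutants. The union for *Bcl11a* includes a transcript with a retained intron. With the longest coding transcripts instead (8111 and 5989 bases), the ratio was 3.12 in controls and 2.74 in mutants, so the order of the paralogs held under both lengths but its size depended on the annotation. By signal, *Bcl11b* ranked 5923 among all genes in controls and 4142 in mutants, and *Bcl11a* ranked 2799 and 1884.

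The size of these ratios was read against genes of similar level, because the share of genes past 1.5-fold fell as the level rose. Among genes with a control mean of at most 1, 19.8% were more than 1.5-fold higher in mutants. The share was 7.84% for control means over 1 and up to 10, and 2.57% over 10 and up to 30. It was 1.20% over 30 and up to 100, the range that holds both paralogs, and 0.87% over 100. The quartiles of the log2 ratio were -0.08 and 0.07 over 30 and up to 100. Over 100 they were -0.12 and 0.05.

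**Figure D2:**
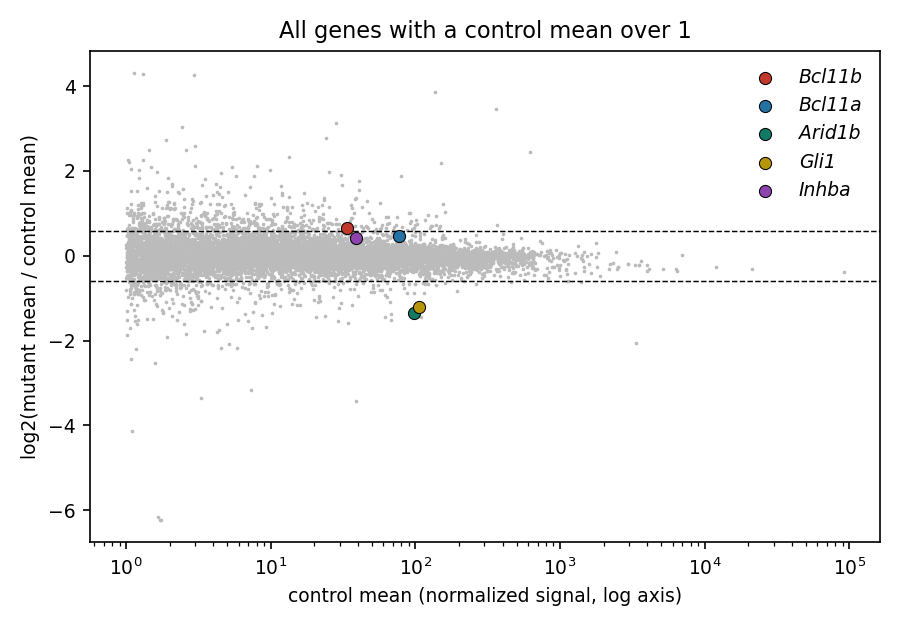
Control mean (horizontal axis, normalized signal, log scale) against the log2 ratio of mutant to control means (vertical axis) for genes with a control mean over 1, with dashed lines at a 1.5-fold difference. *Bcl11b* sits at 0.65 just above the upper line, *Bcl11a* at 0.46 and *Inhba* at 0.41 below it, and *Arid1b* and *Gli1* far below the lower line, at -1.36 and -1.21.

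Of the 500 genes nearest to *Bcl11b* in control mean, with levels of 31.7 to 35.7, 1 had a higher ratio. This was *Pltp*, which encodes phospholipid transfer protein, with means of 35.1 in controls and 62.3 in mutants. The lower and upper quartiles of the log2 ratio of these neighbours were -0.08 and 0.08, and their median was 0.00. In this set 5 genes (1%) were more than 1.5-fold higher and 4 (0.8%) more than 1.5-fold lower.

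Of the 500 genes nearest to *Bcl11a*, with control levels of 71.2 to 84.4, 4 had a higher ratio. They were *Calb1*, encoding the calcium-binding protein calbindin, *Coch*, *Slc12a2*, a sodium-potassium-chloride cotransporter, and *Sparcl1*, with log2 ratios of 1.87, 0.92, 0.72 and 0.69. The quartiles of these neighbours were -0.06 and 0.07. Those same 4 genes (0.8%) were more than 1.5-fold higher, and 2 (0.4%) more than 1.5-fold lower. These 5 genes above the paralogs are named after their values were seen. The places describe the ratio of group means in these libraries, and genes are not replicates of one another. Among the 1000 nearest genes instead, 1.1% lay above each paralog.

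**Figure D3:**
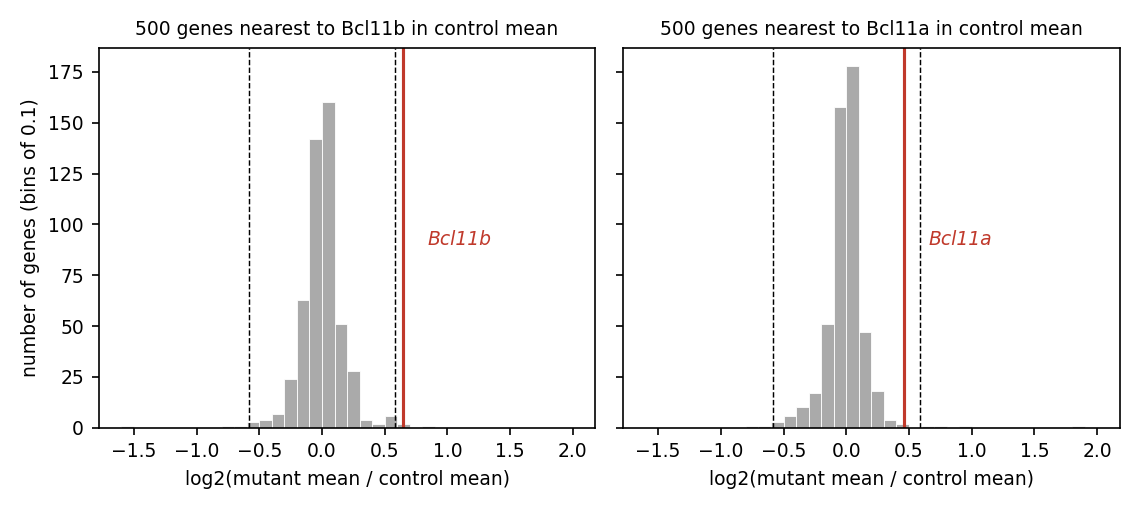
Log2 ratio of mutant to control means (horizontal axis) for the 500 genes nearest in control mean to *Bcl11b* (left) and *Bcl11a* (right), as numbers of genes in bins of 0.1, with the paralog as a red line and a 1.5-fold difference as dashed lines. Each paralog lies in the upper tail of its neighbours, with 1 gene above *Bcl11b* and 4 above *Bcl11a*.

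The genes whose pair of means was most like that of *Bcl11b*, by distance on the log2 scale over the 2 group means, were *Dlg2*, *Aox3*, *Shtn1*, *Lratd1*, *Arrdc3* and *Plxna4*. *Dlg2*, a synaptic scaffold gene, was the nearest, with 33.9 in controls and 52.0 in mutants at a distance of 0.02. *Plxna4*, a receptor for semaphorins, was the sixth, with 32.6 and 49.8 at a distance of 0.09. The log2 ratios of these 6 genes were between 0.53 and 0.62.

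For *Bcl11a* they were *Slc12a4*, *Col26a1*, *Slc26a7*, *Lmnb1*, *Nectin3* and *Moxd1*. The nearest, *Slc12a4*, a potassium-chloride cotransporter gene, had means of 78.4 and 100.3 at a distance of 0.09. *Lmnb1*, encoding lamin B1 of the nuclear envelope, had means of 84.1 and 103.3. With 2 group means per gene, likeness in this sense says that levels and ratios are close, not that the genes vary together between mice.

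The coding genes around the paralogs were close to equal in both groups. *Bcl11b* stands in a gene-poor stretch, where the nearest coding genes with values were *Setd3* at 102.8 kb on one side and *Vrk1* at 1833 kb on the other. *Setd3*, encoding a histidine methyltransferase of actin, had means of 65.9 in controls and 68.9 in mutants. *Ccnk*, encoding cyclin K, had means of 31.1 and 31.3. The log2 ratios of all 6 neighbours of *Bcl11b* were between -0.09 and 0.11, and none was more than 1.5-fold apart. Around *Bcl11a*, the NF-κB gene *Rel* had means of 9.69 and 10.02. Of its 6 neighbours, 1 was past 1.5-fold, *5730522E02Rik*, whose means were 0.403 and 0.666 and so rest on few reads. The other 5 were between -0.16 and 0.19.

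**Figure D4:**
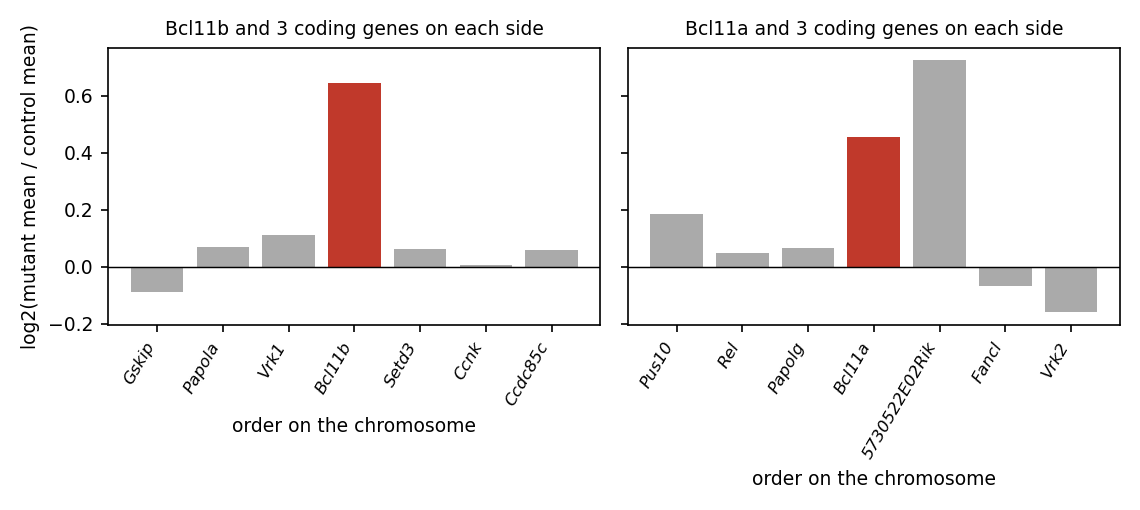
Log2 ratio of mutant to control means (vertical axis) for *Bcl11b* (left) and *Bcl11a* (right), in red, and the 3 nearest coding genes with values on each side in chromosome order, in grey. The neighbours of *Bcl11b* sit between -0.09 and 0.11, and next to *Bcl11a* the low-level gene *5730522E02Rik* reaches 0.72.

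Sequence directly upstream of the start is shown because the mean of both paralogs was higher in mutants. It was taken from RefSeq on GRCm38.p6, from 250 bases before each RefSeq start, leaving out bases that belong to an annotated exon. For *Bcl11b* this leaves 62 bases, chr12:108003603-108003664 on the minus strand, and for *Bcl11a* 225 bases, chr11:24080445-24080669 on the plus strand, which lie downstream of the first exon of 4 other transcripts. Capitals mark matches to the motifs named next.
*Bcl11b*: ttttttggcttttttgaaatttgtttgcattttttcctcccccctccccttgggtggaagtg
*Bcl11a*: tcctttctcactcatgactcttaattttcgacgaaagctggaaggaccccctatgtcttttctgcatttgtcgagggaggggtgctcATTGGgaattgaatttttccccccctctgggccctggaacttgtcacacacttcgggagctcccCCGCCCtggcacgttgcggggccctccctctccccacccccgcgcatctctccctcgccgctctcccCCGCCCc

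Both strands of the 250-base windows were searched for 6 motifs, no matches of which overlapped here. *Bcl11a* held 2 GC boxes (GGGCGG), beginning 99 and 32 bases before the start, and 1 CCAAT box (CCAAT), beginning 163 bases before it. These motifs occur in 32.7% and 33.8% of the 32851 RefSeq windows of this length. The *Bcl11b* window held none of the 6. The TATA box (TATAAA, in 12.4% of windows), the BCL11A motif (TGACCA, 11.4%), the GLI motif (GACCACCCA, 0.225%) and the AP-1 motif (TGANTCA, 6.75%) were found in neither window. The windows also differed in base composition, with 44.8% G and C for *Bcl11b* and 62% for *Bcl11a*, around a median of 52.4% over all windows. Of the 250 bases, 188 for *Bcl11b* and 25 for *Bcl11a* belong to an annotated exon. Motif counts and composition of the *Bcl11b* window thus describe mostly exon sequence that is not printed.

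The complexes with which BCL11 proteins work stayed near equal in signal. Of 28 listed BAF subunits, 27 had values, and 9 had a higher and 18 a lower mean in mutants, with a median log2 ratio of -0.04. In the table as a whole, 50.5% of genes had a higher mean in mutants and the median was 0.00. Apart from the targeted *Arid1b*, none of these subunits was more than 1.5-fold apart. The highest were *Bcl7a* (45.5 in controls and 51.1 in mutants) and *Phf10* (79.8 and 85.6), and the lowest after *Arid1b* was *Dpf3*, with 3.90 and 2.87. Both paralogs had a higher ratio than every listed BAF subunit with values. Since the paralogs were chosen with their values known, nothing is read from this order.

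Of 20 listed NuRD subunits, COUP-TF nuclear receptors and other corepressor partners, 15 had a higher and 5 a lower mean, with a median log2 ratio of 0.04 and 0 genes past 1.5-fold. The highest was *Mbd2*, a reader of methylated DNA in NuRD, with means of 54.8 and 69.3. *Nr2f2*, the COUP-TF to which CTIP proteins owe their name as interacting partners, had means of 24.6 and 30.5. At the lower end, *Nr2f6* had 26.9 and 25.3, and *Mbd3*, the NuRD subunit that replaces MBD2, had 69.4 and 66.7.

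*Inhba*, the activin A subunit gene that the study placed downstream of BCL11B, averaged 38.7 in controls and 51.4 in mutants. Its log2 ratio of 0.41 was below those of *Bcl11b* and *Bcl11a*. Of 10 listed genes of the activin axis (ligand subunits, receptors and the binding proteins *Fst* and *Fstl3*), 7 had a higher and 3 a lower mean, with a median of 0.24, and 0 were past 1.5-fold. The receptor gene *Acvr1b* stood next to *Inhba*, with means of 31.0 and 41.0. The lowest were the receptor *Acvr1c*, at 2.44 and 2.03, and the inhibin subunit *Inha*, at 5.38 and 5.21.

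Signals of the incisor that have been tied to *Bcl11b* in development did not all differ in one direction. Of 12 listed genes, 11 had values, with 9 higher, 2 lower and a median log2 ratio of 0.27. *Shh*, an epithelial signal, was past 1.5-fold, with means of 103.3 in controls and 174.2 in mutants. *Fgf9*, another epithelial ligand, had 7.52 and 11.03. The mesenchymal ligands *Fgf3* and *Fgf10* had the lowest ratios, with means of 10.36 and 7.39 for *Fgf3* and of 29.4 and 23.4 for *Fgf10*.

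Markers of epithelium, a tissue in which *Bcl11b* is known to be expressed, differed between the group means, although the methods describe dissected mesenchyme. Of 14 listed markers, 13 had a higher mean in mutants and 11 (78.6%) were more than 1.5-fold higher, beside 7.37% of all genes. Their median log2 ratio was 1.23, and their summed signal was 1785 in controls and 10496 in mutants. None of them was at the floor, here the signal of 3 reads per library. The enamel protein genes *Enam* (135.8 and 1983) and *Amelx* (361.9 and 3946) were highest. The enamel proteases *Mmp20* (236.2 and 284.8) and *Klk4* (1.49 and 1.21) had the lowest ratios. Of 10 listed transcription factors of dental epithelium and ameloblasts, 8 had a higher mean, with a median of 0.61. Of the 10, 5 were more than 1.5-fold higher, beside the same 7.37% of all genes. *Irx1* (1.26 and 2.84) was highest, and *Msx2* (232.6 and 200.7) and *Foxo1* (209.3 and 178.0) were lowest.

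The log2 ratios of *Bcl11b* (0.65) and *Bcl11a* (0.46) were below the median of the 14 epithelial markers (1.23) and above that of the mesenchymal ones. Against the median of 0.61 for the 10 listed transcription factors, *Bcl11b* was higher and *Bcl11a* lower. Among those factors with a mean of at least 10, the median was 0.24, below both paralogs. The 12 listed markers of dental mesenchyme had a median log2 ratio of -0.31, with 11 lower in mutants. Their summed signal was 33257 in controls and 26883 in mutants. Of them, 3 were more than 1.5-fold lower, beside 5.8% of all genes. These were *Dmp1*, *Gli1*, which is the site of the recombinase, and *Barx1*, with means of 0.932 and 0.516. *Dmp1*, a matrix gene of odontoblasts and osteocytes, was lowest (68.1 and 23.7), followed by *Gli1*, while *Prrx1* (181.8 and 191.5) and *Pax9* (46.5 and 46.4) were near equal. The part of these shifts in the values of the paralogs was not tested, and in bulk tissue more cells of a type and more RNA per cell cannot be told apart.

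Markers of other cells known to express BCL11 genes ranged from under 1 to the level of the paralogs. Of 15 listed T cell markers 9 had values, of which 7 were higher and 4 more than 1.5-fold higher. This stands beside 7.37% of all genes and 19.8% of genes with a control mean of at most 1. Of the 9 markers, 6 were under 1 in both groups, among them the T cell receptor complex gene *Cd3d* at 0.103 and 0.109. The summed signal was 105.7 in controls and 118.1 in mutants, and without *Tcf7* it was 6.27 and 8.84 over 8 genes. *Tcf7* had 99.4 and 109.3 and is a Wnt effector that is not restricted to T cells. *Cd4*, which macrophages can also express, had 3.62 and 5.46, and the T cell kinase gene *Lck* had 1.26 and 1.26.

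Of 10 listed markers of B cells and plasmacytoid dendritic cells, 6 had values, of which 5 were higher in mutants. Past 1.5-fold were 1 upward and 1 downward, beside 7.37% and 5.8% of all genes. The summed signal was 11.16 in controls and 15.47 in mutants. *Blnk* accounted for most of it, with 7.49 and 10.74, *Cd22* had 1.49 and 2.34, and the B cell receptor genes *Cd79a* and *Cd79b* were under 1 in both groups. Of 10 listed neuron markers, 8 had values, of which 5 were higher and 4 more than 1.5-fold higher, beside 7.37% of all genes. Of the 8 markers, 4 were under 1 in both groups. Their summed signal, over all 8, was 42.2 in controls and 53.8 in mutants. *Tubb3* was the most abundant (32.0 and 42.0), while *Uchl1* had 3.56 and 5.68, *Syt1* had 2.68 and 1.98 and *Stmn2* had 3.02 and 2.84. The part of these cells in the values of the paralogs was not tested. The embryonic globin genes that BCL11A is known to silence were not analysed here.

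**Figure D5:**
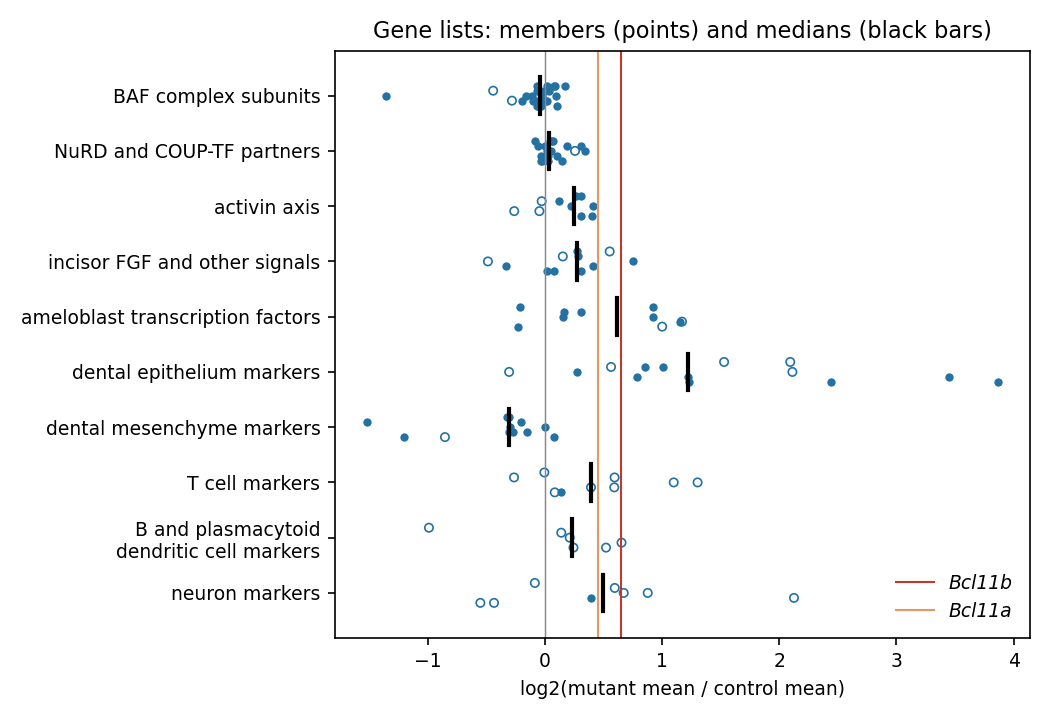
Log2 ratio of mutant to control means (horizontal axis) for the members of 10 gene lists, with filled points for genes with a mean of at least 10 over both groups, open points for lower genes, black bars for list medians and vertical lines for *Bcl11b* and *Bcl11a*. BAF and NuRD genes gather near 0, epithelial markers have a median of 1.23 and mesenchymal markers one of -0.31, and both paralogs lie between these 2 medians.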

How the data were processed

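RNA was extracted with a micro-column kit and sequenced in 6 libraries, 3 per group. Trimming, alignment to mm10 and the comparison in Partek Flow were done by the authors. The submitters' processing notes also name TopHat2 2.0.8. Counting, annotation and strand setting are not given in the sources used here. The authors' deposited table holds 2 group means per gene in a normalized signal. The columns with their p-values, FDR, ratio and fold change, and their filtered list, were not used. A second deposited table summarizes the signal of each library, and 4 of its columns were not used. Its upper quartiles were 44.57 to 44.58 in all libraries. From the lowest values, the signal was read as reads plus 1 times a factor per library, which is an inference behind the read numbers, the counting intervals and the floor of 3 reads per library.

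The members and the gene lists were chosen with earlier results of these data known. Log2 ratios of the group means were computed for all 19270 genes, of which 18840 matched 1 GENCODE vM21 gene, and each paralog was placed among the 500 genes nearest in control mean. No p-value was computed. Intervals are exact binomial (95%). Named genes were the paralogs, *Arid1b*, *Gli1*, *Inhba*, the 6 genes nearest in both means, the 3 nearest coding genes on each side, and the 2 highest and 2 lowest of each list with means of at least 1. The values of 1 gene that this rule names are not reported here. *Xist*, *Ddx3y* and genes under 1 were named after their values were seen. Alternatives were other neighbour sets, scalings, pseudocounts, fold thresholds, filters and lengths. The scripts were tested on simulated data. Figures were drawn with matplotlib 3.10.9, and values computed in Python 3.11.15 with scipy 1.17.1, pandas 2.3.3 and numpy 2.4.6.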

Additional observations from a re-analysis of the deposited data

How the results depend on the processing

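No paired analysis was possible because the tables give group means, and for the same reason no replicate could be left out. Of 56 alternatives, 35 moved a value by less than its interval (or a count by less than 1.5 times) and 21 by more. None turned the direction of a called value. For shares of genes with a higher ratio, this interval was binomial over genes and not the counting error of reads. It ran from 0.00506% to 1.11% for *Bcl11b*, so 1.1% against 0.2% counted as less, although genes are not replicates. With both groups scaled to the same mean, the log2 ratios of *Bcl11b* and *Bcl11a* were 0.71 and 0.52. The share of genes above *Bcl11b* was 0% of 200 neighbours, 0% of 500 neighbours by the mean of both groups and 1.84% of genes with a mean of at least 10, against 0.2% of 500, with 1.1% of 1000 neighbours, and for *Bcl11a* it was 3.09% of those genes, against 0.8%. Per length, *Bcl11b* stood at 0.705 of *Bcl11a* in controls, at 0.321 with the longest coding transcripts and at 0.434 without length correction. The 2538 genes past 1.5-fold (1421 higher, 1117 lower) became 316 (222 and 94) with a mean of at least 10, 658 (470 and 188) with a pseudocount of 1, 5102 at a lower fold threshold and 996 at 2-fold, as the construction of each sets fewer or more genes past the threshold. Among lists, the mean in place of the median gave 0.17 for the activin axis, 0.18 for the incisor signals, 0.53 for the ameloblast factors, 1.51 for the epithelial and -0.45 for the mesenchymal markers. Members with a mean of at least 10 gave 0.31 for the activin axis and 0.24 for the ameloblast factors, and a pseudocount of 1 gave 0.53 for the latter and 1.11 for the epithelial markers. The BAF median without *Arid1b*, an alternative chosen after seeing the data, was -0.04. Where no construction shows the cause of a shift, the cause was not tested. Counting error is small for the paralogs, whereas most T cell, B cell and neuron markers with values had means under 10 (all but *Tcf7*, *Tubb3* and, in mutants, *Blnk*).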

Other observations

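Other zinc finger genes were set beside the paralogs by name, a group chosen after the values were seen. Of 270 genes named *Zfp* and a number with a mean of at least 10 over both groups, 166 had a higher mean in mutants, with a median log2 ratio of 0.03. Of these 270, 2 were more than 1.5-fold higher and 0 more than 1.5-fold lower. Among all 10311 genes with a mean of at least 10, 222 were more than 1.5-fold higher and 94 more than 1.5-fold lower. In the whole table, 50.5% of genes had a higher mean in mutants. *Zfp185*, which despite its name encodes a LIM domain protein of the actin cytoskeleton, had means of 8.70 in controls and 17.07 in mutants. It was the 1 gene of the 270 above *Bcl11b*. *Zfp385a* had means of 23.8 and 36.0, a log2 ratio of 0.59 between those of *Bcl11b* and *Bcl11a*. At the lower end, *Zfp366* had means of 11.97 and 9.29 and *Zfp618* had 48.0 and 37.8.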
